A study of Rattus norvegicus with 8 samples.

Results

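The mRNA of 10 fat marker genes was read heart by heart in 8 isolated rat hearts. The probe sets taken were all 12 whose single gene symbol in the platform annotation is one of the 10 listed genes, out of 31042 probe sets and 14217 genes in all, and every listed gene was found. Ucp1, Cidea and Dio2, with 3 probe sets, are known for brown fat. Adipoq, Lep, Cidec, Plin1, Lipe, Fabp4 and Pck1, with 9 probe sets, are known for fat cells of both kinds. The genes were chosen by their levels across these 8 hearts, as known from earlier results, so the levels by heart are given as a description, without a test.

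In the study, 4 hearts (doxorubicin 1 to 4) were perfused for 2 h with doxorubicin at 2 µM (the prefix of the unit is lost in the label and was read as micro), and 4 hearts (control 1 to 4) for 2 h without drug. Doxorubicin is an anthracycline, an anticancer drug that intercalates into DNA and is known for its toxicity to the heart. All 8 hearts came from male Wistar rats and were perfused in a Langendorff apparatus without recirculation, in which an excised heart is fed through its coronary arteries. The labels name the tissue as heart and give neither the chambers taken nor how the tissue was trimmed. Each heart has 1 Affymetrix array, and the titles number the 4 of each group as biological replicates.

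Brown fat burns fuel to make heat: UCP1 in its mitochondria lets protons leak back across the inner membrane without making ATP. White fat stores triglyceride in a large droplet coated with proteins such as perilipin 1, and secretes hormones such as adiponectin and leptin. Fat cells lie on the outer surface of the heart and around the great vessels at its base, and in rodents the fat around the thoracic aorta resembles brown fat. Some genes used as fat markers are also active in other cells of the heart: FABP4 is found in capillary endothelium, and hormone-sensitive lipase, the product of Lipe, in heart muscle.

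The promoters of Ucp1, Cidea and Adipoq are shown because these 3 genes, 2 known for brown fat and 1 for fat cells in general, had their highest levels in the same 2 hearts. Each is the RefSeq window of GRCr8 from 250 bases before to 50 bases after the gene's start, written 5′ to 3′ on the gene's own strand, with matches to 5 short motifs in capitals.
Ucp1, chr19:41721372-41721671 (minus strand): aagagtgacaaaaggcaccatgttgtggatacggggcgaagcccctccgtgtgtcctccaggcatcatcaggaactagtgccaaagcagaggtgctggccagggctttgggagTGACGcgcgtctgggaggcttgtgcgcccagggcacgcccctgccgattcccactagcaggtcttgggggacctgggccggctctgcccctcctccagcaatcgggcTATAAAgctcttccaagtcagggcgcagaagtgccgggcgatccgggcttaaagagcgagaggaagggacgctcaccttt
Cidea, chr18:63164567-63164866 (plus strand): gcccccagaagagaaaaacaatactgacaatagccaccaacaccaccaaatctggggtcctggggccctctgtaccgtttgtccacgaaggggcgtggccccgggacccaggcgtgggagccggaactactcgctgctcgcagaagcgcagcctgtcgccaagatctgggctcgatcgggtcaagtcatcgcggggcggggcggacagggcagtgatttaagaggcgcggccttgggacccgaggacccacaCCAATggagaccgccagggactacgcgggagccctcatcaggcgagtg
Adipoq, chr11:91240120-91240419 (minus strand): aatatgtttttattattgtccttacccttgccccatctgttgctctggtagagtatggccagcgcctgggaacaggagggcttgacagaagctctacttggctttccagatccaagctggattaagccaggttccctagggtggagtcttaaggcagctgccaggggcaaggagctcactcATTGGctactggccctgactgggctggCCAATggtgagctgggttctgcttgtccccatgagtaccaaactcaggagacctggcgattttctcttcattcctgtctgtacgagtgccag
The motifs, searched on both strands, were the TATA box TATAAA, the CCAAT box, the nuclear receptor half-site AGGTCA, the half-site of the cAMP response element TGACG and the palindrome TTGCGCAA, which C/EBP factors bind. None of them lies within another. The Ucp1 window held TATAAA, starting 30 bases before the gene's start, and 1 TGACG. The Cidea window held 1 CCAAT, just after the start. The Adipoq window held CCAAT 2 times, once on each strand. Of the 10 genes, 8 had a window, and Lipe and Fabp4 were not listed. TATAAA was in 2 of the 8 windows (Ucp1 and Dio2) and in 14.2% of all 33469 windows. CCAAT was in 5 of 8 (Adipoq, Cidea, Dio2, Lep and Plin1) and in 37.5% of all. TGACG was in 3 of 8 (Ucp1, Pck1 and Plin1) and in 21.2% of all. AGGTCA was in 1 of 8 (Pck1) and in 16.2% of all, and TTGCGCAA in 1 of 8 (Lep) and in 0.17% of all. A match is a string of letters and no measured binding site.

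Levels below are log2 of the deposited intensity values. Array medians were 4.90 to 4.96 log2, and 25% of the probe sets had a mean below 4.16 log2. The values carry no detection calls, so levels near or below 4.16 have no reliable fold. The 7 measured markers of heart muscle summed to 87982 to 91918 intensity units in doxorubicin hearts and 87678 to 89929 in control hearts. These sums, with a 1.05-fold range, bear out the tissue label. Doxorubicin 4 stood at least 1 log2 above every other heart in 30 probe sets, and control 1 in 29. In control 2 and control 4 this number was 1 each, and in the other hearts it was 0. Doxorubicin 4 and control 2 carry most of the fat marker signal described next, so differences between the groups are given with and without them.

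Ucp1 had by far the widest spread of the brown fat genes. Its probe set (1387033_at) read 5.77, 4.47, 4.27 and 9.54 in doxorubicin 1 to 4, against 4.50, 6.62, 4.32 and 4.41 in control 1 to 4. Doxorubicin 4 was 5.07 log2, or 33.7-fold, above the median of the other 7 hearts, and it was 7.58-fold above control 2, the second highest. Control 2 was 4.63-fold above the median of the other control hearts, and doxorubicin 1 was 1.40 log2 above the median of doxorubicin 2 and 3. The other 5 hearts lay between 4.27 and 4.50, close to the dim end of the array. The range over the 8 hearts was 5.27 log2, and 8 of the 31042 probe sets had a wider one. High and low hearts were found in both groups, and the groups overlapped.

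**Figure D1:**
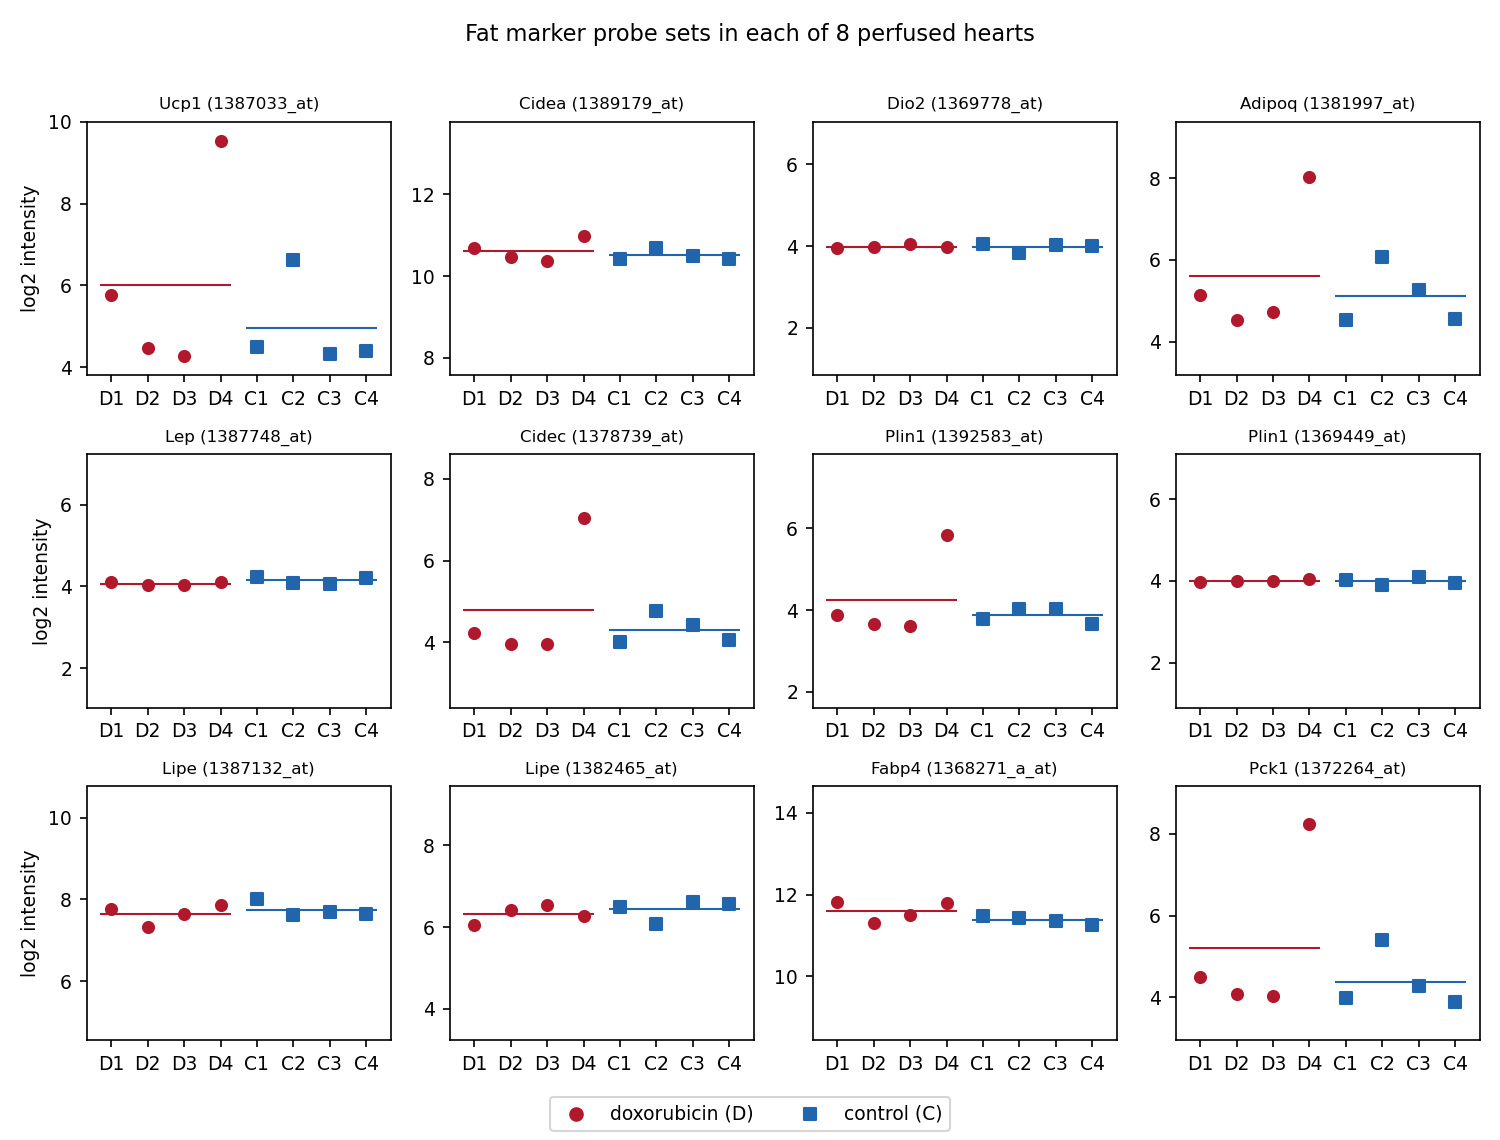
Log2 intensity (vertical axis, the same span of log2 units in every panel) of the 12 fat marker probe sets in doxorubicin 1 to 4 (D, red circles) and control 1 to 4 (C, blue squares), with a line at each group mean. In 5 panels (Ucp1, Adipoq, Cidec, Pck1 and 1 of the 2 Plin1 probe sets) the point of doxorubicin 4 stands apart from the rest, and in the others the hearts lie within 0.68 log2 of each other.

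Cidea encodes a lipid droplet protein abundant in brown fat. It read 10.68, 10.47, 10.37 and 10.98 in doxorubicin 1 to 4 and 10.42, 10.69, 10.50 and 10.43 in control 1 to 4 (1389179_at). The level was far above the array medians in every heart, and the range was 0.61 log2. The 3 highest hearts were those with the most Ucp1, in the same order: doxorubicin 4, control 2 and, close behind it, doxorubicin 1. Doxorubicin 4 was 1.42-fold above the median of the other hearts for Cidea, which was at 10.37 or more in every heart. The 33.7-fold for Ucp1 is against hearts close to the dim end, so the sizes of the 2 folds cannot be compared. Most of the Cidea level was thus present in hearts with Ucp1 close to the dim end. Across the 8 hearts Ucp1 and Cidea had a Pearson r of 0.969 and a Spearman rho of 0.786, and r was 0.922 over the 6 hearts without doxorubicin 4 and control 2. That value rests on doxorubicin 1, since the other 5 hearts had Ucp1 at 4.27 to 4.50, too narrow a span at the dim end to read a relation from. These are descriptions of 8 arrays, each of which gave both values.

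Dio2, the deiodinase that activates thyroid hormone inside brown fat cells, did not share this pattern. Its probe set (1369778_at) read 3.95, 3.97, 4.04 and 3.98 in doxorubicin hearts and 4.04, 3.84, 4.02 and 4.0 in control hearts. All 8 values were below 4.16, within 0.21 log2 of each other, and doxorubicin 4 did not stand out. At this signal, differences in Dio2 were not detectable.

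Adipoq, which encodes the fat cell hormone adiponectin, was highest in the same 2 hearts as Ucp1. It read 5.14, 4.52, 4.72 and 8.04 in doxorubicin 1 to 4 and 4.53, 6.08, 5.27 and 4.56 in control 1 to 4 (1381997_at). Doxorubicin 4 was 9.97-fold above the median of the other hearts, and control 2 was 2.87-fold above the median of the other control hearts. The range was 3.52 log2, and 25 probe sets had a wider one. Below these 2 hearts the order differed from that of Ucp1: control 3 was the third for Adipoq, at 5.27, with Ucp1 at 4.32. Doxorubicin 1 had Adipoq at 5.14 and Ucp1 at 5.77.

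**Figure D2:**
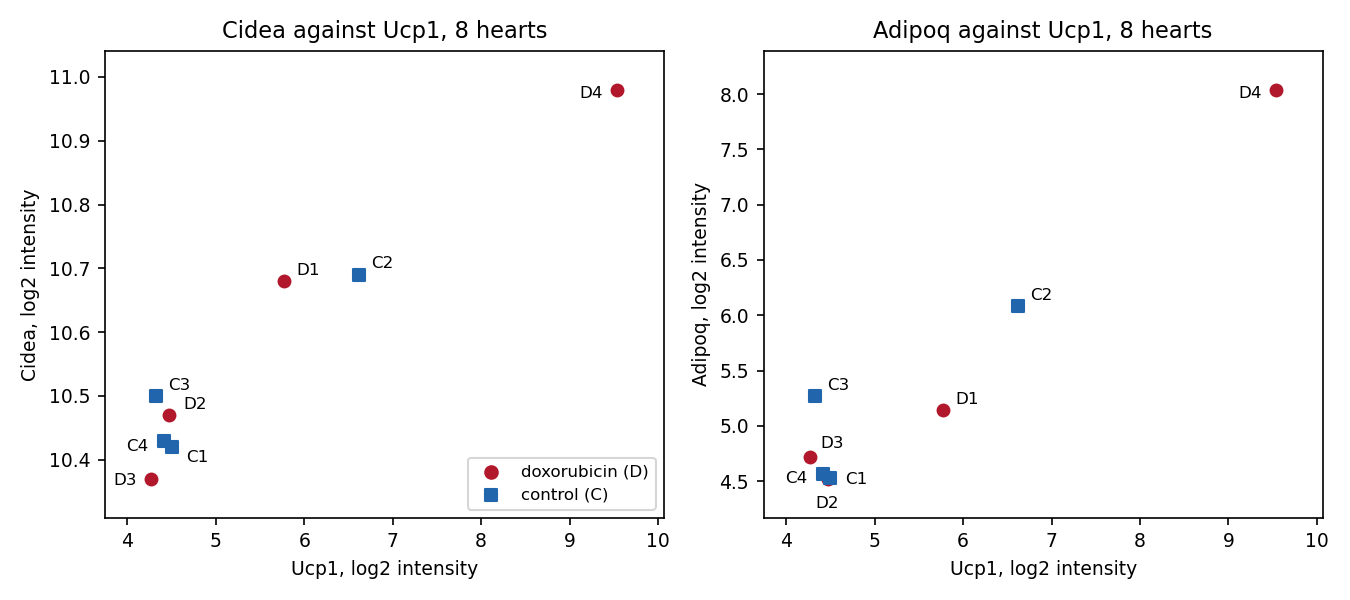
Cidea (left, vertical axis) and Adipoq (right, vertical axis) against Ucp1 (horizontal axes), all in log2 intensity, 1 point a heart (D, doxorubicin, red circles, and C, control, blue squares; the axes do not start at 0). Doxorubicin 4 is at the top right of both panels with control 2 next to it in rank, while control 3 has Adipoq at 5.27 with Ucp1 at 4.32.

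Across the 8 hearts Ucp1 and Adipoq had r 0.965 and rho 0.476, and without doxorubicin 4 and control 2 r was 0.423. The pair therefore rested on these 2 hearts, and that of Ucp1 with Cidea on them and doxorubicin 1.

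Lep encodes leptin, a hormone that white fat secretes in proportion to its stores. It read 4.10, 4.04, 4.03 and 4.11 in doxorubicin hearts and 4.24, 4.08, 4.06 and 4.20 in control hearts (1387748_at), a range of 0.21 log2 at the dim end of the array. Doxorubicin 4 and control 2 did not stand out, and at this signal a difference in leptin mRNA was not detectable.

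The droplet proteins Cidec and Plin1 followed Adipoq. Cidec, which promotes fusion of droplets into a single large one, read 4.22, 3.97, 3.97 and 7.04 in doxorubicin hearts and 4.01, 4.76, 4.42 and 4.06 in control hearts (1378739_at). Doxorubicin 4 was 4.86-fold above control 2, the next highest, and control 3 was the third. Plin1, which coats the droplet and controls access of lipases to it, has 2 probe sets. The first (1392583_at) read 3.88, 3.66, 3.60 and 5.83 in doxorubicin hearts and 3.78, 4.03, 4.02 and 3.67 in control hearts. Doxorubicin 4 alone was above the dim end, and its 4.13-fold step over the median of the other hearts is a fold against values below 4.16. The second (1369449_at) lay between 3.97 and 4.04 in doxorubicin hearts and between 3.90 and 4.10 in control hearts, and showed no such step, so the 2 probe sets of Plin1 disagree in doxorubicin 4.

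Over the 8 hearts, r was 0.979 (rho 0.857) between Adipoq and Cidec and 0.994 (rho 0.976) between Cidec and Plin1. Without doxorubicin 4 and control 2 it was 0.916 for Adipoq with Cidec and 0.942 for Cidec with Plin1. Ucp1 with Cidec had r 0.949 over 8 hearts and 0.246 without these 2. Over the remaining 6 hearts Ucp1 lay at 4.27 to 4.50 in all but doxorubicin 1. Cidec lay at 3.97 to 4.42 in these 6, near the dim end. The r values over these 6 hearts therefore cannot be ranked against each other. Control 3 and doxorubicin 1 were the highest of the 6 for Adipoq, Cidec and Plin1, and the Plin1 values were all below 4.16.

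Pck1 encodes cytosolic PEPCK, which supplies glycerol 3-phosphate for triglyceride in fat cells. It read 4.49, 4.08, 4.04 and 8.23 in doxorubicin hearts and 3.98, 5.40, 4.27 and 3.88 in control hearts (1372264_at). Doxorubicin 4 was 7.11-fold above control 2 and 17.8-fold above the median of the other hearts, and that median lay at the dim end. Its range of 4.35 log2 was the second widest among the 12 probe sets, after Ucp1, and doxorubicin 1 was the third in order, as for Ucp1.

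Lipe, the hormone-sensitive lipase that breaks down stored fat, read 7.76, 7.32, 7.65 and 7.86 in doxorubicin hearts and 8.0, 7.62, 7.70 and 7.64 in control hearts (1387132_at). Its other probe set (1382465_at) read 6.06, 6.41, 6.55 and 6.27 in doxorubicin hearts and 6.50, 6.09, 6.62 and 6.57 in control hearts. Neither had doxorubicin 4 on top, and they ordered the hearts differently: control 1 was highest on the first and control 3 on the second.

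Fabp4, a fatty acid carrier of fat cells and capillary endothelium, was bright in every heart. It read 11.83, 11.31, 11.50 and 11.79 in doxorubicin hearts and 11.49, 11.43, 11.36 and 11.26 in control hearts (1368271_a_at). Doxorubicin 1 was highest and doxorubicin 4 second, by 0.04 log2, and control 2 lay between the other control hearts. The 9 measured endothelial markers summed to 4294, 4124, 3927 and 3620 in doxorubicin 1 to 4, highest of all hearts in doxorubicin 1 and lowest in doxorubicin 4, and to 3832 to 4141 in control hearts. The part of endothelial cells in the Fabp4 level was not tested.

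In all, doxorubicin 4 was the highest heart for 6 of the 10 genes (Ucp1, Cidea, Adipoq, Cidec, Plin1 and Pck1), and control 2 was the second in each of the 6. For Plin1 the second place was 4.03 in control 2 against 4.02 in control 3, both below 4.16, where the order of hearts cannot be read, and its other probe set had control 3 highest. Over all genes doxorubicin 4 was highest in 10.7%, and highest with control 2 second in 2.31%. Doxorubicin 4 was at least 1 log2 above the median of the other hearts for 5 of the 12 probe sets, against 0.271% of all probe sets. Since the genes were chosen with these levels known, the counts describe the choice and support nothing. The other 7 probe sets had a range under 1 log2.

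Whether doxorubicin changed these genes was read from a fit over all 31042 probe sets (limma, Benjamini-Hochberg adjusted over all of them, called under 0.05). None of the 12 probe sets was called, and none had an unadjusted p under 0.05 (0 of 12 in both cases), whereas 2.21% of all probe sets were called (0.689% higher and 1.52% lower) and 13.6% had an unadjusted p under 0.05. The groups overlapped in all 12, while they did not overlap in 8.55% of all probe sets. The mean was higher in doxorubicin hearts for 9 of 12, with a median difference (doxorubicin minus control) of 0.17 log2, against -0.0019 over all probe sets. Without doxorubicin 4 the mean was higher in doxorubicin hearts for 2 of 12, with a median difference of -0.11, and without doxorubicin 4 and control 2 for 5 of 12, with a median of -0.04. Both the count and the sign of the median thus depended on doxorubicin 4.

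Ucp1 averaged 6.01 ± 2.44 log2 in doxorubicin hearts and 4.96 ± 1.11 in control hearts (SD, n = 4 each). The difference was 1.05 with an SE of 1.06, a 95% interval of -1.31 to 3.41 and an adjusted p of 0.764 in limma. Without doxorubicin 4 the difference was -0.12 (SE 0.58), and without doxorubicin 4 and control 2 it was 0.43 (SE 0.34). The sign of the difference therefore depended on which of these 2 hearts were kept, and the interval spans changes in either direction.

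Adipoq averaged 5.60 ± 1.64 log2 in doxorubicin hearts and 5.11 ± 0.73 in control hearts (SD, n = 4 each), a difference of 0.49 (SE 0.71, limma adjusted p = 0.854). Without doxorubicin 4 it was -0.32, and without both hearts 0.0048. Pck1 differed by 0.83 (SE 0.84, limma adjusted p = 0.767), by -0.18 without doxorubicin 4, and by 0.16 (SE 0.15) without both hearts. Cidec differed by 0.49 (SE 0.61) and Plin1 by 0.36 (SE 0.43), and without doxorubicin 4 these values were -0.26 and -0.16. Without both hearts the difference was -0.11 for Cidec and -0.11 for Plin1. In each of these 4 genes the sign turned when doxorubicin 4 alone was left out, and for Pck1 it was positive again without control 2 as well.

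The steadier genes gave narrower intervals. Cidea differed by 0.12 (95% interval -0.16 to 0.40), and by -0.00091 without doxorubicin 4. Fabp4 had the smallest adjusted p among the 12, 0.463 in limma, with a difference of 0.22 (95% interval -0.04 to 0.48). Lipe differed by -0.09 (95% interval -0.37 to 0.18) on the brighter probe set and by -0.12 on the other. Dio2 and Lep differed by 0.0085 and -0.07 at the dim end of the array, where a change could be missed.

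**Figure D3:**
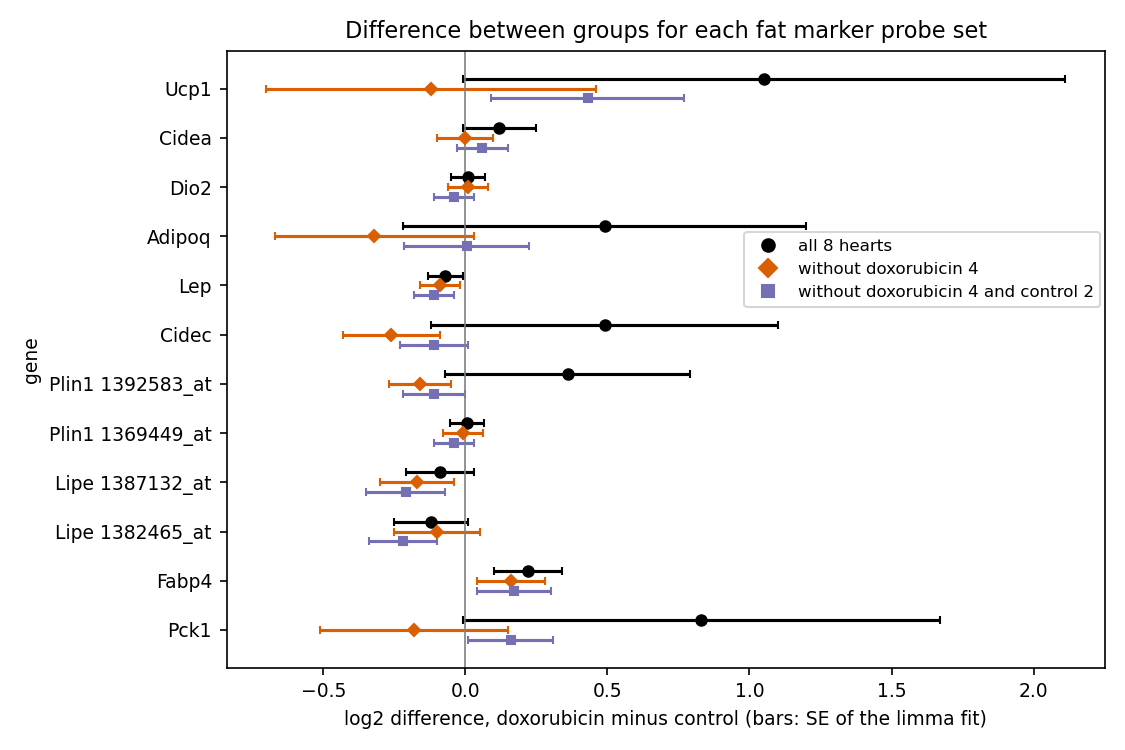
Difference between doxorubicin and control hearts (horizontal axis, log2, doxorubicin minus control) for each fat marker probe set, from all 8 hearts (black circles), without doxorubicin 4 (orange diamonds) and without doxorubicin 4 and control 2 (purple squares), with bars for the SE of the limma fit. The black points of Ucp1, Adipoq, Cidec, Pck1 and the first Plin1 probe set lie above 0 and the orange ones below it, the purple ones of Ucp1 and Pck1 lie above 0 again, and no probe set passed the threshold.

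Another 120 genes of fat cells were read from lists by role, of which 104 were measured. Of these, 1 rose, 2 fell and 101 were not called (limma, adjusted p under 0.05), with a median difference of 0.03 log2. Over all genes 2.97% were called (0.802% higher and 2.17% lower), and the median difference was 0.0063. By heart, doxorubicin 4 was highest for 37 of the 104, and in 12 of the 37 control 2 was second. In 10 of them doxorubicin 4 was at least 1 log2 above the median of the other hearts, which 0.401% of all genes were. The range over the 8 hearts was at least 1 log2 in 21 of the 104, and in 4.75% of all genes. These lists too were drawn up with earlier results of these data known, so their counts by heart are a description and no support.

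Of 24 measured wider brown fat genes, 0 were called, against 2.97% of all genes. Doxorubicin 4 was highest for 3 of the 24 (Gk, Adrb3 and Slc36a2), near its share of 10.7% over all genes. In none of the 3 was it 1 log2 above the median of the others. Prdm16, a transcription factor that drives brown fat identity, read 4.54, 4.60, 4.41 and 4.62 in doxorubicin hearts and 5.01, 5.20, 4.71 and 4.96 in control hearts. Its groups did not overlap, as in 8.55% of all probe sets. Its difference of -0.43 (SE 0.10) had a limma adjusted p of 0.0667, just short of the threshold. Adrb3, the β3-adrenergic receptor through which nerves activate brown fat, read 4.03, 4.22, 4.28 and 4.70 in doxorubicin hearts and 4.22, 4.08, 4.21 and 4.34 in control hearts. Gk, the glycerol kinase of brown fat, was highest in doxorubicin 4 at 6.35 with control 2 second at 5.78, the same top 2 hearts as for Ucp1, and its other probe set ranged over 0.23 log2. Slc36a2, an amino acid transporter, was at 4.50 in doxorubicin 4 and at most at 4.09, the dim end, in the other hearts; it was chosen after its values were seen.

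Cox7a1 and Cox8b, subunits of cytochrome oxidase found in brown fat and in heart muscle, were highest in another heart. Cox7a1 read 8.52, 7.58, 8.62 and 7.99 in doxorubicin hearts and 10.10, 7.94, 8.08 and 8.06 in control hearts. Cox8b read 12.85, 12.00, 12.89 and 12.57 in doxorubicin hearts and 13.53, 12.73, 12.74 and 12.80 in control hearts. Control 1 was on top for both, a heart with Ucp1 at 4.50.

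Of the 6 lists, fat synthesis genes most often had doxorubicin 4 on top. It was highest for 13 of 17 measured and at least 1 log2 above the median of the others for 5. Between the groups 0 of the 17 were called, against 2.97% of all genes. Scd, the desaturase that makes oleate, read 7.19, 4.15, 4.15 and 10.31 in doxorubicin hearts and 4.24, 6.16, 4.68 and 4.10 in control hearts. Doxorubicin 4, doxorubicin 1 and control 2 were the 3 highest, the hearts with the most Ucp1. Fasn, the fatty acid synthase, read 6.90, 6.44, 6.16 and 9.18 in doxorubicin hearts and 6.12, 7.31, 6.50 and 6.01 in control hearts. Its other probe set was also highest in doxorubicin 4, at 7.69, with doxorubicin 1 second, at 5.27, and control 2 at 5.03. Tkt, Acly and Acaca, which supply NADPH precursors, acetyl-CoA and malonyl-CoA for this pathway, were also highest in doxorubicin 4, at 9.09, 8.60 and 8.27.

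Among 26 measured genes of fat identity and secretion, doxorubicin 4 was highest for 14. Thrsp (Spot 14), a lipogenic protein under thyroid hormone control, read 6.59, 5.03, 4.65 and 9.84 in doxorubicin hearts and 4.98, 6.78, 5.21 and 5.12 in control hearts. Its other 2 probe sets had doxorubicin 4 and control 2 on top as well. Rbp4, a retinol carrier, read 4.43, 4.02, 4.04 and 7.02 in doxorubicin hearts and 4.08, 4.92, 4.57 and 4.06 in control hearts. Cfd (adipsin) was at 7.77 in doxorubicin 4 and 6.61 in control 2, and Sncg at 6.76 and 6.04.

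Nrip1, a corepressor of metabolic genes in fat, was the 1 gene of this list that fell. It read 4.88, 4.94, 4.64 and 5.48 in doxorubicin hearts and 5.56, 5.98, 5.88 and 5.66 in control hearts, a difference of -0.78 (SE 0.17, limma adjusted p = 0.0434). The groups did not overlap, as in 8.55% of all probe sets. The difference was -0.88 without doxorubicin 4 and control 2 (limma adjusted p = 0.0094). Leaving out 1 heart at a time gave adjusted p-values of 0.00562 to 0.139, and the call held only without doxorubicin 4 or control 1.

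Of 22 measured genes of droplets and fat breakdown, Plin3 alone was called, where 2.97% of all genes were. This droplet coat protein of many tissues fell to 8.66 ± 0.09 log2 in doxorubicin hearts, against 9.01 ± 0.10 in control hearts (SD, n = 4 each), a difference of -0.35 (SE 0.07, limma adjusted p = 0.0301). With 1 heart left out the adjusted p was 0.02 to 0.0917, and the call held only without doxorubicin 1 or control 1. Dgat2, Agpat2 and Gpd1, which act in triglyceride assembly, were highest in doxorubicin 4, at 8.09, 8.36 and 9.66. For Agpat2 and Gpd1 the groups did not overlap, as in 8.55% of all probe sets. Agpat2 differed by 0.50 (limma adjusted p = 0.282). Gpd1 read 9.06 to 9.66 in doxorubicin hearts and 8.64 to 8.95 in control hearts, a difference of 0.49 (limma adjusted p = 0.102). Without doxorubicin 4 and control 2 it was 0.42, and on the other Gpd1 probe set, over 8 hearts, 0.45 (limma adjusted p = 0.0662). G0s2, an inhibitor of fat breakdown, was lowest there, at 7.49 against 7.89 to 9.24 in control hearts.

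In the list of gluconeogenesis and glyceroneogenesis, Gpd2 rose and the other 5 measured genes were not called. Gpd2, the mitochondrial glycerol 3-phosphate dehydrogenase, read 6.59, 6.76, 6.67 and 6.88 in doxorubicin hearts and 6.30, 6.45, 6.05 and 6.23 in control hearts. The difference was 0.47 (SE 0.10, limma adjusted p = 0.0356), and its other probe set, at 0.15 (adjusted p = 0.546), did not pass. With 1 heart left out the adjusted p of the first probe set was 0.0186 to 0.0998, under the threshold only without control 2. Pck2, the mitochondrial relative of Pck1, had a range of 0.21 log2 with no heart apart. None of 9 measured genes of thyroid hormone activation and response was called, against 2.97% of all genes.

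**Figure D4:**
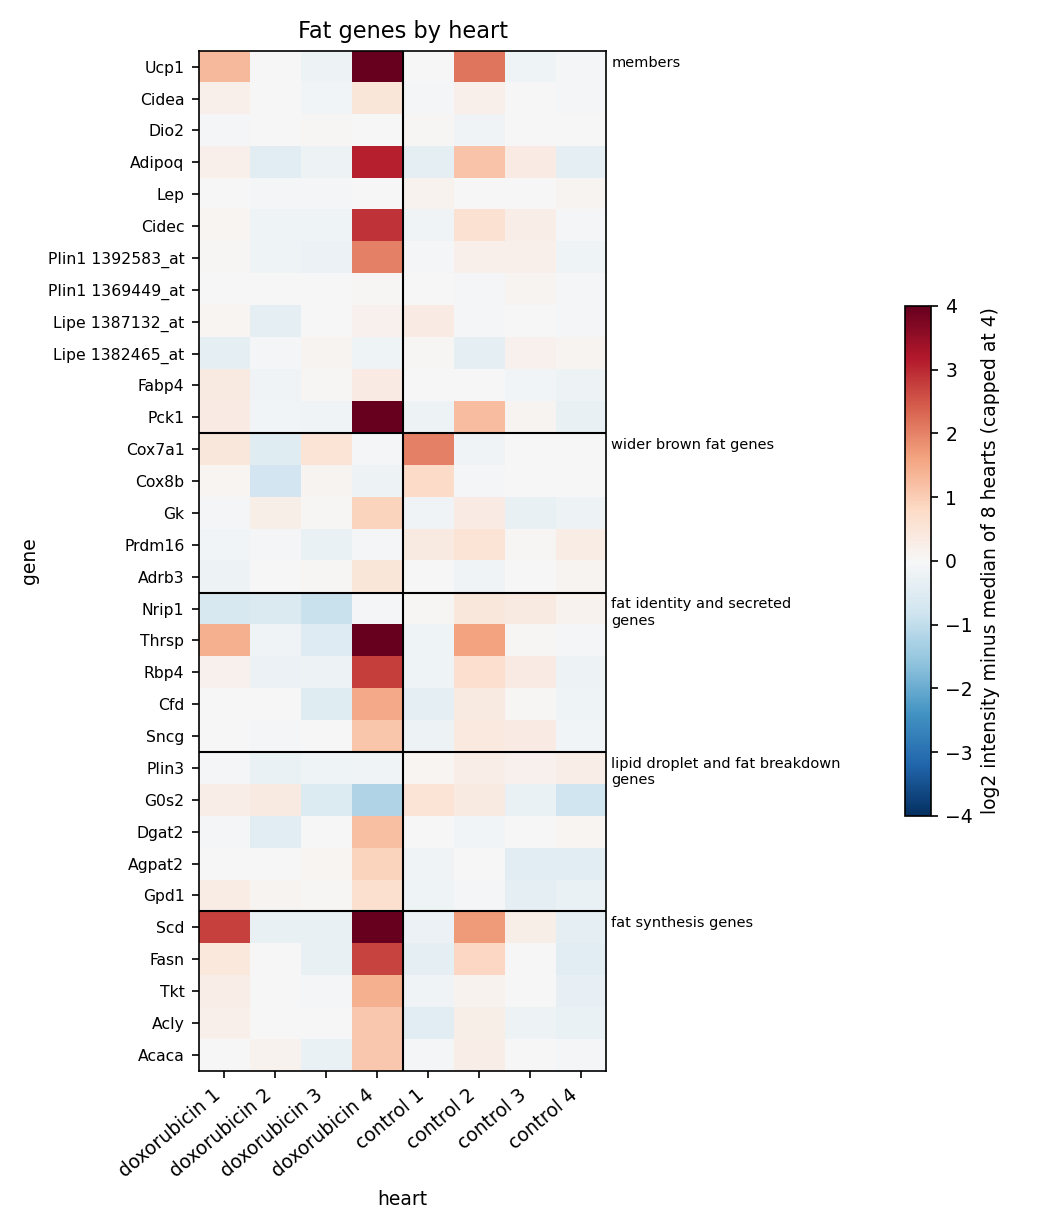
Log2 intensity minus the median of the 8 hearts (colour, capped at 4 log2) for the 12 fat marker probe sets and the named genes of 4 wider lists, 1 row a probe set and 1 column a heart, doxorubicin 1 to 4 left of the line and control 1 to 4 right of it. Red marks a heart above the median: doxorubicin 4 is red for Ucp1, Adipoq, Cidec, Pck1, Thrsp, Rbp4, Scd and Fasn, control 2 more weakly for most of these, and control 1 for Cox7a1 and Cox8b.

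The genes whose pattern was most like that of Ucp1 were found among 656 genes above the dimmest 25% with a range of at least 1 log2. By Pearson r over 8 hearts these were Thrsp (0.992), Fasn (0.984), Pck1 (0.979), Mybphl (0.972), Adipoq (0.965), Scd (0.963), Rbp4 (0.957) and Cfd (0.953). For Adipoq they were Rbp4 (0.989), Pck1 (0.986), Arxes1 (0.985), Prkar2b (0.983), Sncg (0.980), Fasn (0.980), Cidec (0.979) and Cfd (0.965), and 4 genes were on both lists. All 16 values share the 2 high hearts. Without doxorubicin 4 and control 2, r with Ucp1 was 0.962 for Thrsp and 0.964 for Scd, but 0.407 for Rbp4. The first 2 values rest on doxorubicin 1, the only one of these 6 hearts with Ucp1 above 4.50, at 6.59 for Thrsp and 7.19 for Scd. With Adipoq it was 0.969 for Rbp4 and 0.903 for Prkar2b, the regulatory subunit of protein kinase A found in fat.

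The 30 probe sets in which doxorubicin 4 was at least 1 log2 above every other heart included 25 with a single symbol, for 20 genes. Of the 20, 5 are the markers described here and 7 are on the wider fat lists (Scd, Thrsp, Fasn, Rbp4, Dgat2, Cfd and Tkt). Another 2 are atrial markers (Myl4 and Sln). The remaining 6 were Car3, Prkar2b, Cdo1, Mybphl, Alb and Hamp. Car3, a carbonic anhydrase abundant in fat and slow muscle, read 8.06, 5.16, 4.33 and 11.27 in doxorubicin hearts and 4.85, 9.82, 9.34 and 5.75 in control hearts (1367896_at). Control 3 was near control 2 for Car3, as it was not for Ucp1.

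The atrial muscle markers Nppa, Myl7, Myl4 and Sln were highest in doxorubicin 4 and second in control 2, as Ucp1 was. Tbx5 was highest in doxorubicin 4, at 6.46, with doxorubicin 2 second, at 6.37. Fgf12 was highest in doxorubicin 2, at 8.55, with doxorubicin 4 at 8.34. The 6 measured atrial markers summed to 6361, 4326, 1787 and 20786 intensity units in doxorubicin 1 to 4 and to 1577, 10664, 6449 and 1598 in control 1 to 4, a 13.2-fold range with the same 2 hearts on top. Myl7, the atrial light chain, read 10.25, 9.45, 6.90 and 12.26 in doxorubicin hearts and 5.03, 11.32, 10.23 and 7.01 in control hearts. Doxorubicin 2 and control 3 had Myl7 at 9.45 and 10.23 with Ucp1 at 4.47 and 4.32, so the orders were not the same below the top 2. The part of atrial tissue in the fat marker levels was not tested.

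The sums of the other cell type lists had narrower ranges, 1.05-fold to 1.93-fold. Smooth muscle markers (6 of 6 measured) summed to 1238, 1167, 1177 and 1978 in doxorubicin hearts and to 1176, 1842, 2105 and 1174 in control hearts, with control 3 highest. Fibroblast markers (6 of 6) were highest in doxorubicin 4, at 12043 to 15690 in doxorubicin hearts and 9058 to 14396 in control hearts. The sum of nerve markers (6 of 8) was highest there too, at 857 to 1325 in doxorubicin hearts and 688 to 1081 in control hearts. Pmp22, at 10.11 log2 in doxorubicin 4, made up most of it. S100b, which fat cells also make, stood at 6.22 log2 in doxorubicin 4 and at 4.40 to 5.30 in the rest. Mbp was also highest in doxorubicin 4, at 5.78. Sox10 was highest in control 3, at 4.90, and Th and Dbh in control 1, at 4.94 and 5.73. Macrophage markers (8 of 8) were at 861 to 1107 in doxorubicin hearts and 731 to 937 in control hearts, highest in doxorubicin 4. Red blood cell markers (3 of 6) summed to 222, 195, 236 and 292 in doxorubicin 1 to 4 and 234, 243, 232 and 238 in control 1 to 4. This was a 1.49-fold range, and the 3 markers went different ways. Doxorubicin 4 was the highest heart for Hbb, at 7.80 log2, and the lowest for Slc4a1, at 5.66. Alas2 was highest in control 3, at 4.42. The sum of skeletal muscle markers (8 of 9) was highest in doxorubicin 4, at 2440 to 2958 in doxorubicin hearts and 1575 to 2698 in control hearts. Myh1, at 11.47 log2 in doxorubicin 4, made up most of it. The other skeletal muscle markers read at most 4.90 log2 in any heart, and 3 had a mean among the dimmest 25% of probe sets. Cartilage markers (5 of 6) were at 116 to 143 in doxorubicin hearts and 135 to 153 in control hearts, highest in control 3. The sums for lung, liver, thymus and T cell, mesothelium and B cell markers ranged over 1.15-fold to 1.19-fold. Their part in the fat marker levels was not tested. In such whole-tissue RNA, fewer or more fat cells and less or more mRNA in each cannot be told apart.

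**Figure D5:**
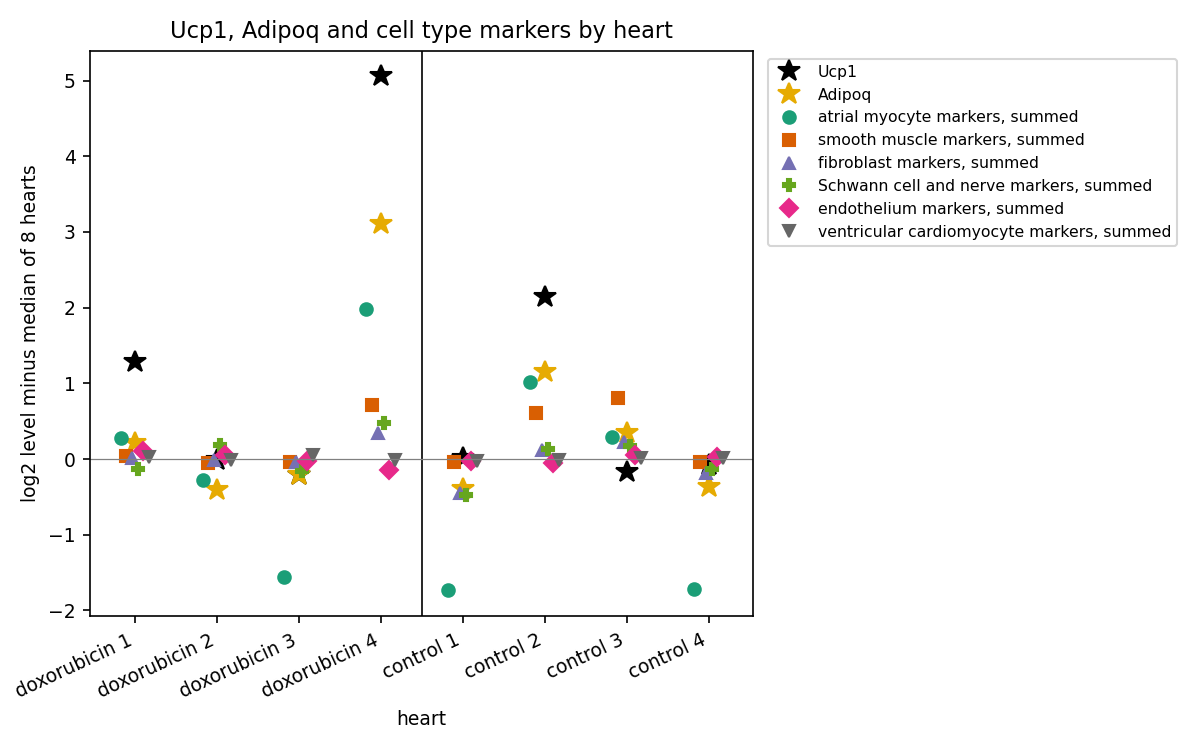
Level by heart (horizontal axis, doxorubicin 1 to 4 left of the line and control 1 to 4 right of it) as log2 minus the median of the 8 hearts (vertical axis), for Ucp1 and Adipoq (stars) and for the summed intensity of 6 cell type marker lists. Ucp1, Adipoq and the atrial sum are all highest in doxorubicin 4 and second in control 2. The endothelial sum and the heart muscle sum, labelled ventricular cardiomyocyte, stay near 0 in every heart.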

How the data were processed

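RNA of 8 rat hearts was measured on 1 Affymetrix array each. The deposited intensity values were made by the authors with RMA, per the submitters' processing notes. The software behind RMA is not given in the sources used here. Their array medians of 29.9 to 31.0 showed a linear scale, so log2 was taken with no offset. Of 31099 probe sets, 57 AFFX controls were left out. RMA evens out the distributions of the arrays, which hides a shift common to most mRNAs. Arrays have no depth, and their number (4 a group) limits the precision.

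Groups and replicate numbers came from the titles. Array correlations were 0.988 to 0.996 within groups and 0.985 to 0.993 between groups, across probe sets, and 0 pairs of arrays were identical. The labels name no batch. The mean of 18 hybridization control probe sets was 9.97 to 10.13 log2 in doxorubicin arrays and 10.21 to 10.57 in control arrays, so it cannot be told apart from the groups.

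The groups were compared in R 4.3.3 with limma 3.58.1 (lmFit and eBayes, no covariate, two-sided, Benjamini-Hochberg over 31042 probe sets, threshold 0.05), with 95% intervals from the moderated t statistic. On simulated data for this comparison over 31042 probe sets, 2-fold changes were found in 96 of 100 probe sets and 1.5-fold changes in 76 of 100. There were 11 false calls. The changed probe sets were drawn at random from all, whose median residual SD was 0.12 log2. It was 1.9 for Ucp1 and 1.51 for Pck1, so these rates do not hold for markers with so wide a spread. The brightest probe set (by its mean over 8 arrays) stood for a gene. Symbols came from the platform annotation: 20826 probe sets had 1 symbol, 436 several and 9780 none, and those with several were not named. The RefSeq table of GRCr8, used for names and promoters only, held the gene ID of 20758 of the 20826. Python 3.11.15 with matplotlib 3.10.9 drew the figures.

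The fat markers, wider lists and cell type lists were chosen with earlier results of these data known. Named were all 10 markers with every probe set, up to 5 genes of each wider list (called ones first, then those with the widest range), and the 8 genes most like Ucp1 and the 8 most like Adipoq. Other genes in the text, among them those of doxorubicin 4, were chosen after their values were seen. In the wider lists 16 genes were not measured and are not analysed here. Alternatives were another normalization, a filter on dim probe sets, other variance models, array weights, the replicate number as a block, 3 covariates, the mean of a gene's probe sets and leaving out each heart. The fit without doxorubicin 4 and control 2 was added after seeing the data.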

Additional observations from a re-analysis of the deposited data

Results flagged for a closer look

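Within each group of 4 hearts, the highest and the lowest value were compared with the rest for the 12 fat marker probe sets and the other named genes, 45 probe sets and 90 groups in all. In 13 of the 90, 1 heart stood apart by a gap that makes up most of the group's range (Dixon's 95% criterion), and chance alone gives about 1 in 20 groups. Since many of these genes were chosen for their levels in these hearts, for a wide range or for likeness to Ucp1 or Adipoq, the number describes that choice and is no test. Of the 13, 7 were at doxorubicin 4, 4 at control 2 and 2 at control 1.

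At doxorubicin 4, Cidec read 7.04 log2 (other doxorubicin hearts 3.97 to 4.22), Plin1 (1392583_at) 5.83 (3.60 to 3.88) and Pck1 8.23 (4.04 to 4.49). Among the wider genes Rbp4 read 7.02 there (4.02 to 4.43), Sncg 6.76 (5.57 to 5.67), Agpat2 8.36 (7.49 to 7.55) and Arxes1 5.38 (3.98 to 4.15). The gap of doxorubicin 4 for Ucp1 and Adipoq did not meet the criterion, since doxorubicin 1 lay between it and the other hearts.

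At control 2, Ucp1 read 6.62 (other control hearts 4.32 to 4.50), Thrsp 6.78 (4.98 to 5.21), Acaca 7.44 (7.11 to 7.16) and Mybphl 6.89 (4.80 to 5.11). The other probe set of Acaca showed no such step: control 2 read 4.82, and the control hearts lay between 4.77 and 5.05. At control 1, Cox7a1 read 10.1 (7.94 to 8.08) and Cox8b 13.53 (12.73 to 12.80).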

How the results depend on the processing

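No fat marker probe set was called under any of the 19 alternatives run, and the smallest adjusted p was 0.207 (Fabp4, limma). Leaving out 1 heart at a time, the differences (doxorubicin minus control) were -0.12 to 1.63 for Ucp1, -0.00091 to 0.20 for Cidea, -0.32 to 0.85 for Adipoq, -0.26 to 0.76 for Cidec, -0.16 to 0.58 for Plin1 and -0.18 to 1.22 for Pck1, with the negative end without doxorubicin 4 in each. For Lipe they were -0.17 to 0.02 and for Dio2 -0.04 to 0.03. With Ucp1 as a covariate the difference was -0.19 for Adipoq, -0.08 for Cidec and -0.03 for Plin1. Without doxorubicin 4 and control 2 it was -0.11 for Cidec, -0.11 for Plin1 and -0.04 for Dio2, and with array weights -0.0082 for Dio2. No other alternative turned a sign. All probe sets called numbered 687, 397 to 854 when 1 heart was left out and 92 with the hybridization controls as a covariate. The number of wider fat genes called was 3 in the main fit. It was 1 with arrays centred on their medians, 0 with the hybridization covariate and 5 with Adipoq as a covariate. With 1 heart left out it was 0 to 2. These counts cover all genes of the lists and are not always of the same 3 genes, and the cause was not tested. With a replicate block, 511 probe sets, 0 fat markers and 1 wider fat gene were called. The deviations of same-numbered hearts correlated at -0.184 to 0.059, and no heart correlated best with its own number. The labels do not say whether same-numbered hearts were handled together, and these values cannot decide it. Dim signal limits Dio2, Lep and Plin1.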

Other observations

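Control 1 stood at least 1 log2 above every other heart in 29 probe sets, none of them a fat marker, and it was the highest heart for 19.1% of all genes. Its atrial marker sum was the lowest of all hearts, at 1577. Hamp, the iron hormone hepcidin, read 6.46, 5.77, 5.42 and 8.30 in doxorubicin 1 to 4 and 6.72, 7.29, 6.47 and 5.89 in control 1 to 4. Alb, albumin, read 4.28, 4.47, 4.32 and 5.67 in doxorubicin hearts and 4.57, 4.37, 4.35 and 4.46 in control hearts. Cdo1, a cysteine dioxygenase, read 6.49, 5.94, 5.77 and 9.29 in doxorubicin hearts and 6.46, 7.79, 7.34 and 6.38 in control hearts.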
